A study of Mus musculus with 10 samples.

Results

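The cytosolic ribosomal protein genes were followed in RNA sequencing libraries of mouse striatum. They were found by symbol: protein-coding genes whose symbol starts with Rpl or Rps and a digit, together with Rpsa, Rplp0, Rplp1, Rplp2 and Fau, without the Rps6k kinases and the symbols that end in -ps and a digit. The rule found 87 of the 47632 gene rows of the deposited table. They were 46 large-subunit and 32 small-subunit proteins of the standard ribosome, 8 paralogs (Rpl3l, Rpl7l1, Rpl10l, Rpl22l1, Rpl36al, Rpl39l, Rps27l and Rps27rt) and Rps19bp1, which binds Rps19 and is not a ribosome subunit. A further 6 symbols fitted the pattern but were not annotated as protein-coding. Rack1, which also encodes a ribosome protein, falls outside the rule because of its name.

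The series compared 5 libraries from hemizygous R6/2 mice with 5 from isogenic wild-type controls, all striatum taken at 11 weeks of age. R6/2 mice model Huntington's disease: their transgene is the first exon of human huntingtin, driven by its own promoter and lengthened in its CAG repeat. Because the labels do not tie each library to its own animal, the p-values weigh only the variation among these 10 libraries, some of which may be technical. Values are FPKM, by definition fragments scaled by transcript length and by the mapped fragments of the library. No source used here says how these libraries were scaled, and their depth is unknown. In bulk tissue, fewer cells of a type and less RNA per cell cannot be told apart.

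Ribosomal proteins dress the ribosomal RNA of the large and small subunits, and cells make them in matched amounts. Their mRNAs typically begin with a C and a run of pyrimidines, the terminal oligopyrimidine (TOP) tract, through which mTOR signalling controls their translation. Their short, strongly transcribed mRNAs have been copied back into the genome many times, which has left processed pseudogenes, most of them intronless, with sequences close to the parent gene.

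The start regions of 5 genes are shown because they carry that tract and belong to genes described below. Each covers 15 bases before and 15 bases from the RefSeq start (GRCm38.p6), and capitals mark a C followed by at least 4 pyrimidines that begins within 5 bases of the start.
Rps9, chr7:3704026-3704055, plus strand: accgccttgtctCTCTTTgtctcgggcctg
Rps21, chr2:180257364-180257393, plus strand: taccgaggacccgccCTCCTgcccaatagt
Rpl39, chrX:37085208-37085237, minus strand: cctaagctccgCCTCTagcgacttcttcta
Fau, chr19:6057932-6057961, plus strand: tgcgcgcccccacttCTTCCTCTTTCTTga
Rpl15, chr14:18270972-18271001, minus strand: gtgggagaaagccttCTTCCTTTCCTCTgg
RefSeq promoters were matched for 67 of the 87 genes. The tract was found in 33 of their 79 promoters (41.8%), in 6027 of all 32851 promoters (18.3%) and in 17 of 75 promoters of mitochondrial ribosomal protein genes (22.7%). Only the transcribed strand was searched, and a match describes the letters alone. Of the 5 genes called below, 3 have a promoter with the tract (Rps9, Rps21 and Rpl39). None was found for Rpl5 and Rpl7l1, nor in a second promoter of Rps21.

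The test called 5 ribosomal protein genes, all of them higher in R6/2: Rps9, Rps21, Rpl5, Rpl39 and the paralog Rpl7l1. None was called lower. The test was limma on log2(FPKM + 1), two-sided, with Benjamini-Hochberg adjustment over all 15905 genes that averaged 1 FPKM or more and a threshold of 0.05. Of the 87 genes 70 were tested, so 7.14% of those tested were called. Over all tested genes 14.1% were called, 5.00% higher and 9.11% lower. At an unadjusted p under 0.05 there were 7 ribosomal protein genes above and 3 below control. The share of all tested genes at that unadjusted threshold is not given here, so these counts cannot be set beside the shares above. Of all calls 35.4% were in the higher direction, against 46.5% after quantile normalization and 57.3% after the nuclear protein-coding total was rescaled to a common value.

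Rps9 (chr7:3703993-3706897, plus strand) encodes a protein of the small-subunit body. Its FPKM was 32.1, 27.2, 28.9, 37.8 and 26.3 in control libraries 1 to 5 and 41.8, 40.0, 48.5, 48.8 and 41.4 in R6/2 libraries 1 to 5. Every R6/2 library lay above every control library. The mean rose from 30.5 ± 4.68 to 44.1 ± 4.21 FPKM (SD, n = 5), a log2 change of 0.53 (SE 0.110, limma adjusted p = 0.0116). Rps9 kept its call without any 1 library, with adjusted p from 0.00415 to 0.0320.

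Rps21 (chr2:180257377-180258445, plus strand), another small-subunit protein, was at 29.6, 33.2, 27.3, 30.0 and 30.1 FPKM in control and at 34.2, 48.3, 38.3, 41.0 and 35.8 in R6/2. The 2 groups did not overlap, and R6/2 library 1 was the closest to the controls. The log2 change was 0.38 (SE 0.0986, limma adjusted p = 0.0306). The call was lost without control library 1, 3 or 4 or without R6/2 library 3 or 4, with adjusted p up to 0.0747.

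Rpl39 (chrX:37082520-37085402, minus strand) encodes one of the smallest ribosomal proteins, which lies beside the tunnel through which the new peptide leaves. It was at 9.86, 17.4, 13.8, 16.1 and 14.1 FPKM in control and at 16.9, 23.0, 24.7, 20.8 and 22.6 in R6/2. Only R6/2 library 1 fell within the control range, just under control library 2. The log2 change was 0.58 (SE 0.152, limma adjusted p = 0.0314). Leaving out control library 3 or 5, or R6/2 library 2, 3, 4 or 5, ended the call, with adjusted p up to 0.0726.

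Rpl5 (chr5:107900502-107909005, plus strand) binds the smallest ribosomal RNA of the large subunit and, with Rpl11, can hold Mdm2, the ligase that degrades p53. Its FPKM was 9.50, 6.91, 5.21, 6.18 and 16.2 in control and 18.4, 26.2, 16.0, 16.8 and 13.9 in R6/2. Control library 5 lay inside the R6/2 range, and the other 4 controls lay below every R6/2 library. The log2 change was 1.05 (SE 0.275, limma adjusted p = 0.0313). Without control library 5 it was 1.27 (adjusted p = 0.00374), and without control library 1, 2, 3 or 4 or R6/2 library 1, 2, 3 or 4 the adjusted p was between 0.0520 and 0.0720. Exons of Rpl5 overlap Fam69a on the other strand and Snord21 on the same strand. No source used here gives the strand setting of the counting.

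Rpl7l1 (chr17:46773907-46782672, minus strand), a relative of Rpl7 linked to the assembly of the large subunit, was low. It was at 1.31, 1.20, 1.25, 1.40 and 0.754 FPKM in control and at 1.83, 2.20, 2.44, 2.04 and 2.86 in R6/2. All R6/2 libraries were above all controls, and the log2 change was 0.58 (SE 0.140, limma adjusted p = 0.0211). Without R6/2 library 3 the adjusted p was 0.0513, and Rps9 was then the only ribosomal protein gene called.

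**Figure D1:**
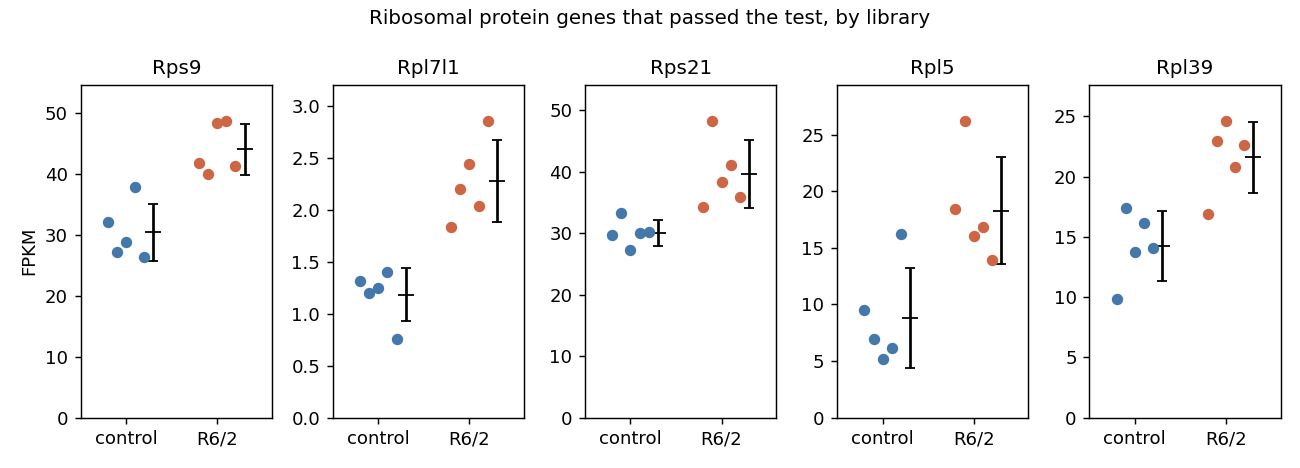
FPKM (vertical axis, linear from 0) of the 5 ribosomal protein genes that passed the test, in control and R6/2. Each point is 1 library, in library order from left to right, and the bars are the mean and SD of 5 libraries. The groups do not overlap for Rps9, Rpl7l1 and Rps21, whereas control library 5 reaches 16.2 for Rpl5 and R6/2 library 1 is at 16.9 for Rpl39.

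Groups that did not overlap were found for 3 ribosomal protein genes in the higher direction (Rps9, Rps21 and Rpl7l1) and for 0 in the lower one, where 4.50% and 8.58% of all tested genes stood. Cortical neuron markers moved with the groups: the mean log2(FPKM + 1) of 4 such genes, centred over the libraries, was between -0.937 and -0.0205 in control and between 0.0921 and 0.844 in R6/2. With this signal as a covariate none of the 5 genes was called, with log2 changes of 0.50 for Rps9, 0.60 for Rpl7l1, 0.23 for Rps21, 0.78 for Rpl5 and 0.25 for Rpl39, and limma adjusted p from 0.178 to 0.562. In that fit 3.89% of all tested genes were called. Since the signal did not overlap between the groups, the 2 cannot be told apart.

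In the test described above most log2 changes of the tested ribosomal protein genes were small. Of the 70, 40 had a log2 change above 0 (57.1%, beside 50.2% of all tested genes) and 30 below. Their median was 0.086 beside 0.001 for all 15905 tested genes, and 62 of the 70 lay within 0.5 of 0 on the log2 scale. The share of all 87 genes in the nuclear protein-coding FPKM, given below, did not overlap between the groups. Paralogs are counted here with the subunit of their symbol, so these sets differ from those of the opening, and Rps19bp1 is in neither. The median was 0.057 over the 46 tested large-subunit genes, of which 3 were called (Rpl5, Rpl39 and the paralog Rpl7l1). It was 0.094 over the 23 tested small-subunit genes, of which 2 were called (Rps9 and Rps21). Both other scalings raised the median of all tested genes as well: the median of the ribosomal protein genes was 0.128 after quantile normalization (0.048 for all tested genes) and 0.193 after the protein-coding total was rescaled (0.093 for all tested genes). It was 0.018 with the cortical covariate described above and 0.040 without control library 3.

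**Figure D2:**
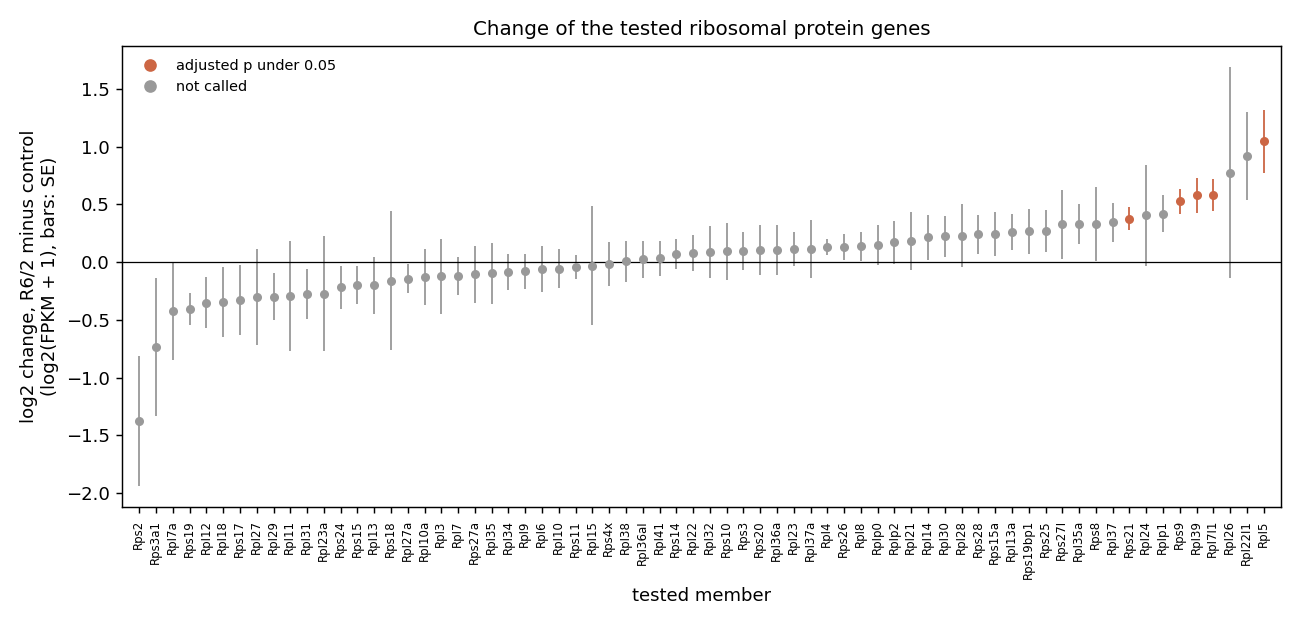
Change from control to R6/2 (vertical axis, log2(FPKM + 1) scale) of 68 of the 70 tested ribosomal protein genes, ordered by size along the horizontal axis. Points are limma estimates, bars are 1 SE, and the 5 called genes, from 0.38 for Rps21 to 1.05 for Rpl5, are in red. Rps2 at -1.38 is the lowest and was not called.

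Some genes with sizeable estimates did not pass. Rps2 and Rps19, and the stalk genes and Rpl11 below, were chosen after their values were seen. Rps2, a protein of the mRNA entry side of the small subunit, was at 12.6, 9.19, 5.34, 13.4 and 9.76 FPKM in control and at 4.57, 13.5, 3.87, 0.694 and 0.712 in R6/2. R6/2 library 2 stood at the top of the control range while libraries 4 and 5 were under 1 FPKM. The log2 change of Rps2 was -1.38 (SE 0.563, limma adjusted p = 0.143), and without R6/2 library 2 it was -1.84 (adjusted p = 0.0274). Exons of Rps2 overlap Snhg9 on the other strand and Snora64 on the same strand. Rps19, the gene most often mutated in Diamond-Blackfan anaemia, was at 17.3, 16.1, 18.0, 25.3 and 22.7 FPKM in control and at 12.3, 14.5, 16.2, 13.2 and 17.0 in R6/2. Its groups overlapped at 16.1 to 17.0 FPKM (change -0.41 on the log2 scale, SE 0.139, limma adjusted p = 0.0851).

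The stalk of the large subunit, which recruits the elongation factors, is built from Rplp0, Rplp1 and Rplp2. Rplp1 was at 17.7, 14.4, 15.8, 17.1 and 18.1 FPKM in control and at 18.3, 21.1, 17.7, 26.5 and 31.7 in R6/2. R6/2 libraries 4 and 5 were well above the rest, and library 3 lay within the control range (log2 change 0.42, SE 0.157, limma adjusted p = 0.111). Rplp1 was called after the protein-coding total was rescaled (0.53, adjusted p = 0.0434). Rplp0 was at 4.34 ± 1.34 FPKM in control and 4.82 ± 0.736 in R6/2, and Rplp2 was at 13.6 ± 3.45 and 15.3 ± 3.12 (SD, n = 5). Neither passed, with limma adjusted p of 0.623 and 0.594. Rpl11, the partner of Rpl5, was at 5.57 ± 1.67 FPKM in control and 5.27 ± 3.22 in R6/2 (SD, n = 5), and 1 R6/2 library (5) was at 0.413 while the others were between 3.74 and 8.29.

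Listed levels of the standard subunit genes spanned a wide range, although the proteins are made in matched amounts. Control means of the 78 genes ran from 0.108 FPKM for Rps12 to 83.0 FPKM for Rpl4, with a median of 6.85 beside 7.07 for all tested protein-coding genes and 8.17 for the mitochondrial ribosomal protein genes. There were 14 genes at 20 FPKM or more and 12 under 1 FPKM. FPKM is per length, but no source used here gives the annotation release behind the lengths, and exons of some of these genes overlap other genes. Levels are therefore compared between genes only roughly, and within the limits on copies given below.

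The highest was Rpl4, which reaches into the peptide exit tunnel, at 75.4, 87.5, 88.6, 87.7 and 76.0 FPKM in control and 92.8, 87.9, 89.0, 91.0 and 93.0 in R6/2. R6/2 library 2 lay within the control range and the other 4 lay just above it (log2 change 0.13, SE 0.0682, limma adjusted p = 0.259), and quantile normalization alone brought it past the threshold (0.28, adjusted p = 0.0456). Next came Rps15 at 38.8 ± 3.54 FPKM, Rps3, which guards the entry of the mRNA channel, at 33.2 ± 8.01, Rpl32 at 32.5 ± 7.30 and Rps15a at 30.8 ± 8.78 in control (SD, n = 5). Those 4 neighbours differed by less than the larger of their SDs from one to the next, and none of them was called between the groups. At the low end of the tested genes stood Rpl10a at 1.10 ± 0.323, Rpl7l1 at 1.18 ± 0.252, Rpl27 at 1.47 ± 1.10, Rpl23a at 1.51 ± 2.41 and Rpl12 at 1.68 ± 0.448 FPKM in control. Of those only Rpl7l1 passed the test. The filter fell between Rps13 (mean over 10 libraries 0.958), Rps23 (0.911) and Rpsa (0.725), which were left out, and Rpl10a (1.04), Rpl23a (1.08) and Rpl27 (1.26), which were tested.

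A value of 0 was common for genes that every cell needs. Of the 87 genes 17 were listed at 0 (below 1e-06 FPKM) in at least 1 library, 13 of them standard subunits. Together they gave 71 of 870 values, 34 in control and 37 in R6/2. Control libraries held 5 to 8 such genes and R6/2 libraries 5 to 10. An exact 0 in FPKM can be a failed estimate, so these genes are only said to be listed at 0.

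Among small-subunit proteins Rps12 was at 0 in 4 control and 4 R6/2 libraries, and was 0.538 FPKM in control library 4 and 0.311 in R6/2 library 1. Fau, whose product is a ubiquitin-like protein fused to a small-subunit protein, was at 0 in 3 control and 2 R6/2 libraries and reached 1.05 FPKM at most. Rps29 was at 0 in 2 control libraries and 1 R6/2 library. Rps27, Rps3a1 and Rps6, the last the classic substrate of the S6 kinases, were each at 0 in 1 control and 1 R6/2 library. Rps23 was at 0 in 1 control library, and Rps7 in 2 R6/2 libraries.

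On the large subunit Rpl36 was at 0 in 3 control and 3 R6/2 libraries, and Rpl17 and Rpl19 each in 2 control libraries and 1 R6/2 library. Rpl23a and Rpl27 were at 0 in 1 R6/2 library each, Rpl23a with a value above 0 but under the limit of 1e-06. A library at 0 was found for 3 tested ribosomal protein genes (Rpl23a, Rpl27 and Rps3a1), which is 4.29% of the 70, beside 123 of 11692 tested protein-coding genes (1.05%). The 17 genes that were not tested were 14 with a library at 0 and Rps13, Rps16 and Rpsa, which were above 0 throughout. Rpsa, the small-subunit protein also known as a laminin receptor, was between 0.0884 and 1.87 FPKM, Rps13 between 0.191 and 1.71, and Rps16 between 0.127 and 1.09.

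The paralogs differed in whether they were seen at all. Rpl10l and Rpl39l, both known from testis, were at 0 in all 10 libraries. Rpl3l, known from heart and skeletal muscle, was at 0.282, 0.332, 0, 0.177 and 0.198 FPKM in control and at 0 in all 5 R6/2 libraries. These values lay under the filter and were not tested. Rps27rt was at 0 in 3 control and 3 R6/2 libraries and reached 1.57 FPKM.

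The sequences of 3 pairs show how far the paralogs part from their standard gene. Each line gives coding bases from the start codon, to base 150 or, for the shorter Rpl39 pair, base 153, from the transcripts of the GRCm38 annotation, and capitals mark bases that differ from the standard gene of the set.
Rps27, chr3:90212522-90213651: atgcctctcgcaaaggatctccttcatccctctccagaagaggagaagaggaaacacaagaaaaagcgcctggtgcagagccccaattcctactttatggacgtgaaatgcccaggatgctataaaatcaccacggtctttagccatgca
Rps27l, chr9:66946086-66949516: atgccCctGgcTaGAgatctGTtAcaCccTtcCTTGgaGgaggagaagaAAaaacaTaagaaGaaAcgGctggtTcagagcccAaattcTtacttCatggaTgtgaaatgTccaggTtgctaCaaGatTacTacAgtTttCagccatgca
Rpl39, chrX:37082520-37085402: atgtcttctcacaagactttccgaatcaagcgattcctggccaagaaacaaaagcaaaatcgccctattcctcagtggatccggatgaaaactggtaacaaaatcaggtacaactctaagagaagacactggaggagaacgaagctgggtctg
Rpl39l, chr16:10170226-10174911: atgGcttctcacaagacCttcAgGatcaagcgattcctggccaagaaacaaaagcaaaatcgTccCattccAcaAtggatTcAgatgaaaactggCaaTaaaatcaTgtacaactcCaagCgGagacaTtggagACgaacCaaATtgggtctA
Rpl36a, chrX:134585654-134588062: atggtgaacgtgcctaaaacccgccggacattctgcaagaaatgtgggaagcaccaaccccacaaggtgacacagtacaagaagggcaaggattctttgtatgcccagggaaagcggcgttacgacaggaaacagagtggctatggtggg
Rpl36al, chr12:69182731-69184083: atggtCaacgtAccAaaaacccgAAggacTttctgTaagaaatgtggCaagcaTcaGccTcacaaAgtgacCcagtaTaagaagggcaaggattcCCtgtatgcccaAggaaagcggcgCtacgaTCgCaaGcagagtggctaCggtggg
Rps27l matched Rps27 at 192 of 252 coding bases (76.2%), Rpl39l matched Rpl39 at 130 of 153 (85.0%) and Rpl36al matched Rpl36a at 279 of 318 (87.7%). Rps27rt, on chromosome 9, matched Rps27 at all 252.

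Rps27l, a p53-responsive relative of Rps27, was at 7.21, 10.9, 8.56, 7.32 and 5.88 FPKM in control and at 9.53, 11.5, 17.3, 12.2 and 4.19 in R6/2. R6/2 library 5 was the lowest of all 10 and library 3 the highest (log2 change 0.33, SE 0.303, limma adjusted p = 0.533). Rps27 itself was listed at 0.850 ± 0.716 FPKM in control and 0.572 ± 0.433 in R6/2 (SD, n = 5). Rpl36al was at 10.9 ± 1.86 FPKM in control and 11.2 ± 2.75 in R6/2, and Rpl36a at 3.43 ± 1.15 and 3.75 ± 1.08 (SD, n = 5). Neither passed the test, with limma adjusted p of 0.951 and 0.796.

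Rpl22l1, the paralog of Rpl22, was at 2.89, 3.64, 2.00, 2.83 and 2.81 FPKM in control and at 5.18, 3.97, 20.4, 3.59 and 5.25 in R6/2. R6/2 library 3 stood far above the rest and the groups overlapped by 1 library (log2 change 0.92, SE 0.382, limma adjusted p = 0.152). Rpl22 was at 28.5 ± 4.28 FPKM in control and 30.4 ± 6.04 in R6/2 (SD, n = 5, limma adjusted p = 0.781). Rps19bp1 was at 3.02 ± 0.788 and 3.87 ± 1.08 (adjusted p = 0.438).

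Most of these genes have near-identical copies elsewhere in the genome. For each gene the coding sequence was aligned to all annotated transcripts, and another gene was counted as a copy where it matched at 95% identity or more over at least 80% of the coding sequence. Copies were found for 80 of the 87 genes, with a median of 5 and a maximum of 57 for Rpl21, and for 14 of 78 mitochondrial ribosomal protein genes. Of the 585 pairs of gene and copy 560 involved a pseudogene, and 21 genes had a copy with an identical coding sequence. No copy was found for 7 genes, among them Rpl8, Rps3 and Rps27l. The identical copy of Rpl5 was Gm15500 on chromosome 7.

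A second measure was the share of windows of 50 coding bases found in no other annotated gene. Its median was 9.86% for the 87 genes and 100% for the mitochondrial ribosomal protein genes, and 31 genes had no such window. No source used here gives the read length, windows of 75 bases gave a similar relation to level, and copies that are not annotated were not counted. Exons of 39 of the 87 genes overlap another gene, and 30 hold a total of 59 snoRNA genes, which are usually processed from their introns. How reads shared between copies were assigned is likewise not given, so the values of genes with few such windows are uncertain. Both measures and the limits on them were chosen after the values were seen.

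Listed levels went with this share. Of the 78 standard genes, 61 had under 25% of windows of their own, with a median control mean of 4.36 FPKM (0.108 to 30.8). The 6 genes between 25% and 50% had a median of 11.9 FPKM. The 11 with 50% or more, among them Rpl4, Rps3, Rps9, Rps15 and Rps21, had a median of 30.0 FPKM (17.3 to 83.0). All 13 standard genes with a library at 0 were in the first class, 10 of them with no window of their own and none above 11.7%. Spearman's rho between control mean and share was 0.648 across the 78 genes and 0.425 across all 87, where the silent paralogs sit at high shares, and 0.420 with 75-base windows. This is a description across genes that share libraries, and genes are not independent replicates.

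**Figure D3:**
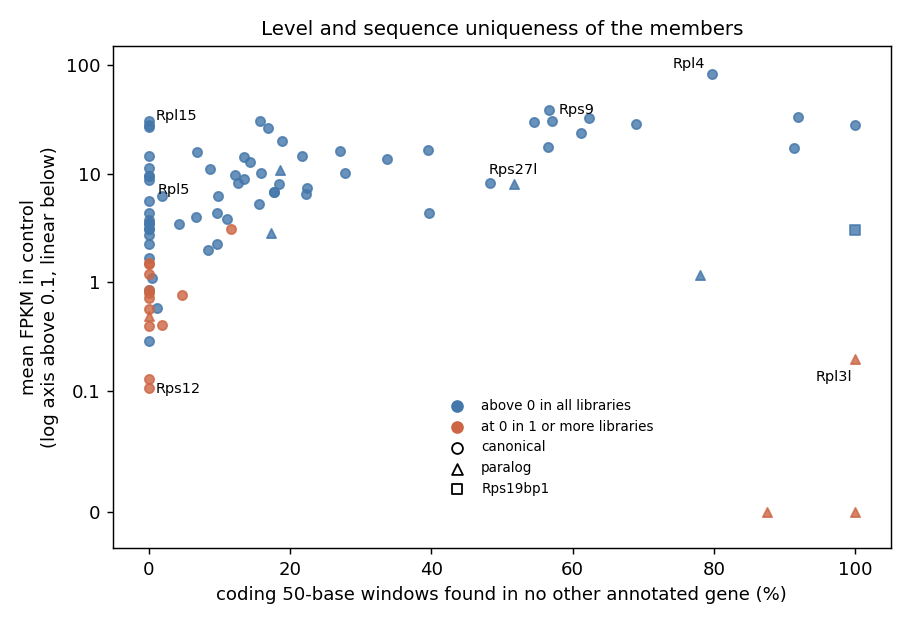
Mean control FPKM (vertical axis, log scale above 0.1 and linear below) against the share of 50-base coding windows found in no other annotated gene (horizontal axis, %), 1 point per ribosomal protein gene. Red points were listed at 0 in 1 or more libraries. Standard genes with 50% or more lie between 17.3 and 83.0 FPKM, and Rps12, with no window of its own, is the lowest at 0.108.

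The called genes were spread over both ends of this scale. The share was 78.1% for Rpl7l1, 57.0% for Rps9, 54.5% for Rps21, 13.5% for Rpl39 and 0% for Rpl5. Of the 11 standard genes with 50% or more 2 were called and 9 were above 0, with a median log2 change of 0.130. Of the 48 tested genes under 25% 2 were called and 21 were above 0, with a median of -0.057. Libraries of a group also differed more for the genes with few windows. Over all standard genes of a class, tested or not, the median SD on the log2(FPKM + 1) scale within a group was 0.364 under 25%. It was 0.260 from 25% to 50% and 0.209 from 50%. The classes also differ in level, with median control means of 4.36, 11.9 and 30.0 FPKM, and the part of level in this spread was not tested. Over the tested ribosomal protein genes alone the median SD was 0.321. It was 0.234 over 5206 protein-coding genes between the lower and upper quartile of their levels (3.75 to 16.5 FPKM). That range lies below all standard genes with 50% or more, which start at 17.3 FPKM.

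Rps3a1, Rpl26 and Rps18, chosen after their values were seen, show a gene and its copies side by side. Rps3a3 on chromosome 13, annotated as a processed pseudogene, matched Rps3a1 at 783 of 792 coding bases (98.9%), and the opening 150 bases were the same letters in both.
Rps3a1, chr3:86137940-86142702: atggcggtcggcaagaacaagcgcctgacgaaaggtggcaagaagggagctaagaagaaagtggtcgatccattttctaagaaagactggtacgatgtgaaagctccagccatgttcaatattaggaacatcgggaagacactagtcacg
Rps3a3, chr13:108670603-108671397: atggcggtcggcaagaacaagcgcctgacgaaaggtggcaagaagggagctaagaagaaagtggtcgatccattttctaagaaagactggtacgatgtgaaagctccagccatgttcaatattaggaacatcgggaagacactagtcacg
Rps3a1 was at 0, 4.41, 2.98, 4.93 and 3.19 FPKM in control and at 0.986, 2.42, 4.24, 0.167 and 0 in R6/2. The pseudogene was at 14.6, 10.9, 6.82, 4.71 and 8.63 FPKM in control and at 17.6, 9.22, 9.31, 17.2 and 21.0 in R6/2. In each group the library in which Rps3a1 was at 0 was the one with the highest value for Rps3a3. Neither was called, with limma adjusted p of 0.485 and 0.208. Rpl15, a large-subunit gene with no window of its own, ranged as widely, at 12.4, 28.9, 53.0, 13.2 and 27.5 FPKM in control and at 13.4, 12.3, 19.1, 30.4 and 64.5 in R6/2 (log2 change -0.03, adjusted p = 0.984).

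Rpl26, which also binds the p53 mRNA, was at 8.81, 8.37, 0.266, 12.6 and 11.3 FPKM in control and at 18.8, 23.5, 18.0, 21.0 and 0.410 in R6/2. Its annotated copies summed to 11.1, 11.4, 12.4, 5.73 and 7.08 FPKM in control and to 3.30, 2.23, 9.08, 8.94 and 15.3 in R6/2. Control library 3 and R6/2 library 5, the lowest for Rpl26, were the highest of their group for the copies. The log2 change of Rpl26 was 0.78 with an SE of 0.916 (limma adjusted p = 0.633). Rps18 was at 19.6, 8.57, 1.34, 13.5 and 6.06 FPKM in control and at 3.08, 11.2, 11.7, 10.1 and 2.90 in R6/2. Its copies, chiefly Gm10260, summed to 0, 3.59, 9.02, 3.43 and 3.22 FPKM in control and to 5.31, 4.00, 6.42, 3.53 and 5.17 in R6/2. The copies were lowest in control library 1, where Rps18 was highest, and highest in control library 3, where it was lowest, whereas in R6/2 library 3 both were the highest of their group. Whether reads were exchanged between these genes and their copies was not tested.

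**Figure D4:**
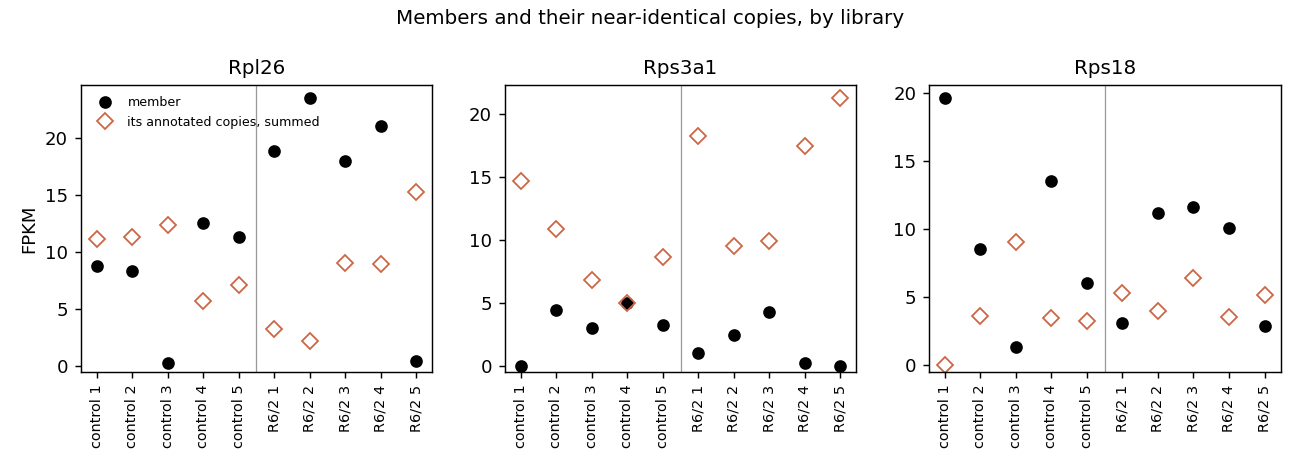
FPKM (vertical axis) of Rpl26, Rps3a1 and Rps18 (black) and the sum of their annotated copies (open diamonds) in each of the 10 libraries (horizontal axis), with a line between control and R6/2. Where the gene is near 0, as Rpl26 in control library 3 (0.266) and Rps3a1 in R6/2 library 5 (0), the copies are at 12.4 and 21.2 FPKM.

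Beside the genes at 0, the copies could hold more than the parent. The copies of Rps12 summed to between 2.09 and 3.91 FPKM in every library, and Gm44510, with the identical coding sequence, gave 1.34 to 2.13 of that. The copies of Rpl39 were at 10.5, 0, 9.76, 0 and 14.0 FPKM in control and at 17.1, 14.4, 35.4, 0 and 12.9 in R6/2, whereas those of Rpl5 stayed at or under 1.31. The copies were at 0 throughout for Rpl7l1. Of 582 distinct copies 477 were other rows of the table, of which 214 were at 0 in all libraries and 42 were tested.

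Of the 42 tested copies 2 were called, both lower in R6/2. Over all tested genes 5.00% were called higher and 9.11% lower, so these 2 calls are not read as a trait of the copies. Rpsa-ps10 on chromosome 3, which matches Rpsa at 99.3% of aligned bases, was at 11.2, 4.62, 14.0, 12.9 and 9.42 FPKM in control and at 2.74, 0, 2.92, 0.189 and 4.26 in R6/2 (limma adjusted p = 0.0197). Gm3617 on chromosome 1, a copy of Rpl17, was at 2.33, 3.36, 3.28, 2.08 and 2.81 FPKM in control and at 0.241, 0, 1.67, 0.733 and 0.752 in R6/2 (limma adjusted p = 0.0116). In both cases every R6/2 library was below every control library. Rpsa itself was at 0.589 ± 0.414 FPKM in control and 0.861 ± 0.579 in R6/2, and Rpl17 at 0.399 ± 0.375 and 0.276 ± 0.177 (SD, n = 5).

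Summed over the 87 genes, control libraries 1 to 5 held 898, 875, 867, 940.1 and 938 FPKM and R6/2 libraries 902, 973, 998, 1027 and 1038. R6/2 library 1 lay within the control range and the other 4 lay above it. The mean was 903 ± 34.3 in control and 987 ± 54.1 in R6/2 (SD, n = 5), a log2 ratio of 0.128, and 0.244 after rescaling. As a share of the FPKM of all nuclear protein-coding genes the sum was 0.404% to 0.445% in control and 0.467% to 0.522% in R6/2. That total was itself lower in R6/2, at 193203 to 202906 FPKM beside 211209 to 219426. The mitochondrial genome held 28.1% to 33.8% of all FPKM in control and 22.1% to 29.9% in R6/2. A sum over chosen genes carries no test.

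**Figure D5:**
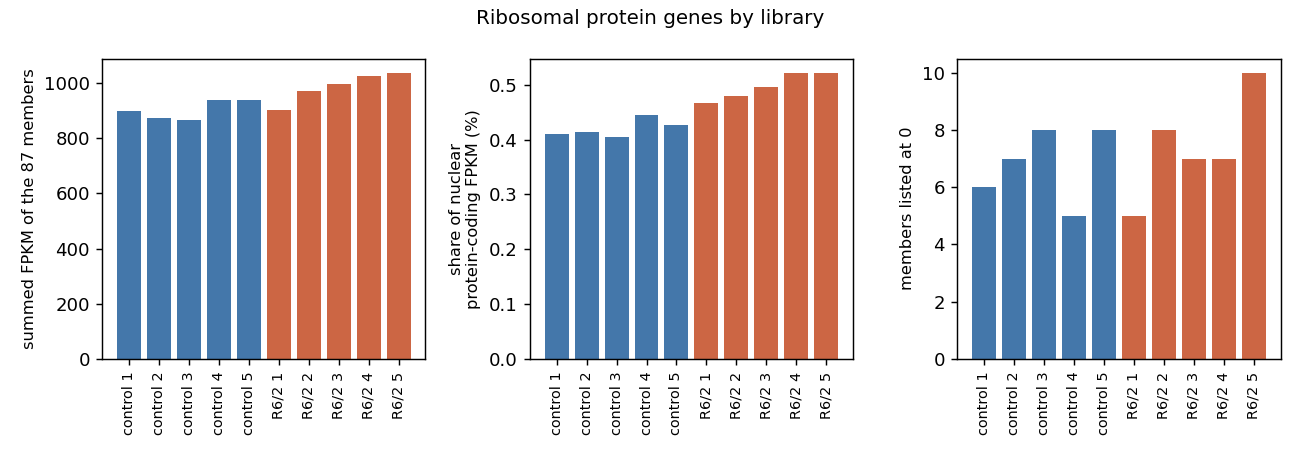
Summed FPKM of the 87 ribosomal protein genes, their share of the FPKM of nuclear protein-coding genes (%) and the number of them listed at 0, as bars for each library (control blue, R6/2 red). The share runs from 0.404% to 0.445% in control and from 0.467% to 0.522% in R6/2, and the number at 0 from 5 to 8 and from 5 to 10.

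Genes that make or regulate ribosomes were read from lists of known function. Among 27 tested elongation factor and other TOP genes none was called, with a median log2 change of 0.146. The smallest p belonged to Nap1l1, a histone chaperone (-0.31, limma adjusted p = 0.0600), Eif3k, an initiation factor subunit (0.36, 0.0686), and Pabpc1, which binds poly(A) tails (-0.31, 0.0813). Rack1, a small-subunit protein outside the symbol rule, was at 75.7 ± 14.8 FPKM in control and 89.1 ± 17.6 in R6/2 (SD, n = 5, limma adjusted p = 0.424).

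For the transcription of ribosomal RNA, 20 genes were tested, 1 was called higher and 1 lower (median 0.033). Polr1d, a subunit shared by RNA polymerases I and III, rose from 14.1 ± 1.93 to 19.2 ± 1.15 FPKM (means ± SD of 5 libraries, change 0.43 on the log2 scale, limma adjusted p = 0.0151). Ubtf, the factor that opens ribosomal DNA for RNA polymerase I, fell from 11.6 ± 1.81 to 7.83 ± 1.44 FPKM (change -0.51 on the log2 scale, limma adjusted p = 0.0383). Polr1c differed by 0.61 (adjusted p = 0.0825). Of 83 tested genes for ribosome assembly 1 was called in each direction (median 0.111). Tsr1, which works in the maturation of the small subunit, fell from 32.0 ± 2.13 to 24.1 ± 2.58 FPKM (change -0.40 on the log2 scale, limma adjusted p = 0.0130). Gnl3l, a nucleolar GTPase, rose from 80.5 ± 7.79 to 98.2 ± 2.11 FPKM (0.29, adjusted p = 0.0295). Imp3 differed by 0.67 (adjusted p = 0.0633).

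Of 27 tested genes of the mTOR pathway and of the translation of ribosomal protein mRNA 4 were called lower and 1 higher (median 0.017). This list also holds kinase genes of the Rps6ka and Mknk families, Rps6ka3 and Mknk1 among them, so its calls are not a count of mTOR pathway genes alone. Rragd, a Rag GTPase that brings mTOR to the lysosome, fell from 39.3 ± 7.66 to 18.7 ± 1.86 FPKM (means ± SD of 5 libraries, change -1.02 on the log2 scale, limma adjusted p = 0.000880). The kinase gene Rps6ka3 fell (-0.61, limma adjusted p = 0.00854), as did Deptor, an inhibitor of mTOR (-0.47, adjusted p = 0.00918), and Mknk1, a kinase of the cap-binding factor (-0.60, adjusted p = 0.0493). Rragb, another Rag GTPase, rose (0.49, adjusted p = 0.0436).

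Ribosome-bound and rescue factors gave 2 higher and 0 lower calls among 22 tested genes (median 0.116). Serbp1, which clamps idle ribosomes, rose from 175 ± 19.0 to 222 ± 15.1 FPKM (means ± SD of 5 libraries, change 0.35 on the log2 scale, limma adjusted p = 0.0251). Ccdc124, another protein of idle ribosomes, rose by 0.46 (adjusted p = 0.0363), and Edf1, a sensor of collided ribosomes, differed by -0.33 (adjusted p = 0.0546). Of 76 tested mitochondrial ribosomal protein genes 3 were called, all higher: Mrpl20 (0.59, adjusted p = 0.0232), Mrps22 (0.47, 0.0267) and Mrpl39 (0.49, 0.0376). Their median log2 change was 0.108. All these shares stand beside the 5.00% called higher and 9.11% called lower over all tested genes.

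Markers of several cell types also moved with the groups, and their part in the values above was not tested beyond the cortical covariate. All 10 spiny neuron markers were called lower, and their sum was 1668 to 2117 FPKM in control and 221 to 362 in R6/2. The sum of the 4 cortical markers was 21.5 to 47.0 and 48.3 to 83.9 FPKM. Lower calls were made for 3 of 6 myelin, 2 of 6 astrocyte, 1 of 5 tested microglial and 2 of 5 blood markers, and none of 4 endothelial markers was called. The 4 choroid plexus markers were not called but summed to between 13.7 and 541 FPKM in control and between 26.8 and 459 in R6/2. No marker was at 0 in every library.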

How the data were processed

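The authors deposited 1 table of FPKM values, with 1 column for each of 10 libraries and 47632 gene rows. Per the labels' protocols, a Qiagen kit for lipid-rich tissue gave the striatal RNA, NuGEN Ovation RNA-Seq v2 amplified it, and Nextera libraries were read on an Illumina HiSeq. The genome build was GRCm38 and the tools were STAR (2.4.0), Cuffdiff and Cufflinks, per the submitters' processing notes. No source used here gives their roles, the annotation release, the strand setting or how libraries were scaled. FPKM keeps no counts, so depth and counting error are unknown. A second file named in the labels was not analysed here, and 0 columns were left without a sample.

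Matching Ensembl IDs to the GENCODE annotation of GRCm38 gave 47220 rows a symbol and a position. The ribosomal protein genes, lists and markers were chosen with earlier results of these data known. The 15905 genes that averaged 1 FPKM or more were fitted with limma 3.58.1 in R 4.3.3 (eBayes with a mean-variance trend, 8 residual degrees of freedom, median prior degrees of freedom 1.77) on log2(FPKM + 1) as R6/2 minus control, with a two-sided test, Benjamini-Hochberg adjustment and a threshold of 0.05. The scale understates the change of low genes. The fit was tested on simulated data. Copies were found with blastn 2.17.0. Windows were searched on both strands of all annotated transcripts. The genes named by rule are those that passed the threshold, were at 0 in any library, are the 5 highest or 5 lowest tested by control mean, are paralogs or Rps19bp1, or have one of the 3 smallest p of a list, and Rpl39. Others were chosen after their values were seen. Alternatives changed the pseudocount, filter, treatment of 0, scaling, limma settings, covariates and libraries. Some genes that meet the rule, or belong to the lists and markers, are not reported here.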

Additional observations from a re-analysis of the deposited data

Results flagged for a closer look

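In 140 groups of 5 libraries, 2 for each tested ribosomal protein gene, 7 had a highest or lowest library whose gap to its neighbour was a larger part of the group's range than Dixon's 95% critical value for 5 values. For independent, normally distributed values about 1 in 20 groups, here 7, would be flagged. These genes share libraries, so that rate need not hold here, and whether chance accounts for the flags was not tested. Rpl26 was flagged in both groups, for control library 3 at 0.266 FPKM and R6/2 library 5 at 0.410 FPKM. Rps3a1 was flagged for control library 1 at 0 FPKM. Rpl22l1 was flagged for R6/2 library 3 at 20.4 FPKM, Rpl23a for control library 5 at 5.79 FPKM and Rpl9 for control library 2 at 19.2 FPKM. Rpl7l1 was flagged for control library 5 at 0.754 FPKM, below the other controls, and its call in R6/2 held without that library (limma adjusted p = 0.0306).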

How the results depend on the processing

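The number of ribosomal protein genes called higher was 5, and 3 with no filter on low values, 3 with the replicate block and 0 with the cortical covariate. It ran from 1 to 4 when 1 library was left out, and the number called lower from 0 to 1, the 1 being Rps2. The median log2 change was 0.086, and 0.193 after rescaling (0.093 for all genes), 0.018 with the cortical covariate and 0.040 to 0.119 without 1 library. The log2 ratio of the summed FPKM was 0.128, and 0.244 after rescaling and 0.110 to 0.159 without 1 library. No called gene changed sign. Of 22 alternatives Rps9 lost its call in 1, Rpl7l1 in 3 of the 21 that tested it, Rps21 in 6, Rpl39 in 9 and Rpl5 in 11. With no filter the adjusted p of Rpl5 and Rpl39 was 0.0563 and 0.0527. The block ended the calls of Rpl5 (0.0932) and Rpl7l1 (0.111). Libraries with the same number did not deviate together across the tested genes (correlations from -0.053 to 0.049, 1 of 5 best with its own number). No pairing by number was seen, but a weak pairing could go unseen in such correlations. Why calls differed between settings was not tested. Depth is unknown, so what it limits cannot be stated.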
